A study of Drosophila melanogaster with 7 samples.

Results

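Long noncoding RNAs (lncRNAs) were followed in single cell transcriptomes of the Drosophila larval brain. Of 17493 genes listed, 1921 carry a symbol that starts with lncRNA:, and 1097 of these had at least 1 unique molecular identifier (UMI, the tag that lets copies of one captured transcript count once). The 44 lncRNA genes with 1000 or more UMIs summed over all cells of both feeding conditions are described here. They held 97.2% of all lncRNA UMIs and 1.83% of all UMIs. Their totals chose them and are given as a description only. The last genes inside the threshold were CR43242 with 1211 UMIs and CR45911 with 1006 UMIs, and the first genes outside it were CR44272 and CR46268 with 997 UMIs each.

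Brain lobes were taken from Canton-S wild type larvae late in the first instar, without the ventral nerve cord, and dissociated into single cells. Larvae of the normal condition stayed on fly food, and larvae of the starvation condition were kept on agar without food for 4 hr before dissection. The labels give 11 hr after larval hatching as the age at transfer to starvation, while the methods give another hour and a kit version that also departs from the labels. Larvae were pooled before dissociation and their sex is not given in the sources used here. Both conditions share the strain, which the labels spell Wild type CS. The 4 normal libraries came from 3 replicates (Normal A, Normal B with libraries B.1 and B.2, and Normal C) and the 3 starvation libraries from 2 replicates (Starvation A with A.1 and A.2, and Starvation B).

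lncRNAs are transcripts without a long open reading frame. Some act as RNA in the nucleus, as the roX RNAs do in the dosage compensation complex that raises transcription from the single X chromosome of males, and others are precursors from which microRNAs are cut. Many are made in 1 tissue or cell type and at low levels. Neuroblasts, the stem cells of the fly brain, divide asymmetrically to renew themselves and to give rise to neurons and glia, and the class of neural progenitor cells (NPCs) holds these cells and their near progeny.

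Of 9353 deposited barcodes, 8696 passed the filters on genes and on mitochondrial UMIs, 4349 normal and 4347 starved. Kept cells were shallowest in Normal A (median 2370.0 UMIs) and deepest in Normal C (median 12296.0 UMIs). Clusters were built without lncRNA genes and named from marker genes, which gave 4779 neurons, 822 undifferentiated neurons, 655 NPCs, 547 glia and 194 muscle cells. Clusters whose markers pointed to no single class stayed unnamed and held 15.4% of the normal and 17.0% of the starved cells. Normal C had 3 undifferentiated neurons and 1 muscle cell, so these classes have 2 normal replicates. In B.1 and B.2, 55.1% and 49.3% of the barcodes also occurred in another library, in A.1 and A.2 14.9% and 14.0%, and in the other libraries at most 1.00%. Sharing crossed the conditions: B.1 had 250 and 218 barcodes in common with A.1 and A.2, and B.2 had 262 and 233. Of these, 107, 104, 119 and 119 were over 3 times shallower in the normal library. The reverse held for 61, 46, 30 and 27. Why barcodes were shared between libraries was not tested. Results that rest on these libraries were computed again without the 1094 cells whose barcode had over 3 times as many UMIs elsewhere. Many of these cells were NPCs: without them, NPCs went from 199 to 83 in Normal B and from 213 to 95 in Starvation A. Neurons went from 1106 to 843 and from 2065 to 2041 in these replicates.

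The members were uneven in abundance. CR34335 alone had 1048214 UMIs, lncRNA:roX1 had 171998 and lncRNA:Hsromega had 111850, and together they held 76.0% of the UMIs of the 44 genes. The median member had 3207.5 UMIs. By the gene annotation of the same genome assembly (release 6), 10 members lie on X, 7 on 2L, 5 on 2R, 9 on 3L, 12 on 3R and 1 on chromosome 4. Of the members, 7 overlap a microRNA gene on their own strand, among them CR43334 with bantam, CR31044 with mir-279 and mir-996, CR45388 with mir-315 and CR45911 with mir-2c, mir-13a and mir-13b-1. Another 8 overlap a protein-coding gene on their own strand, where the 2 transcripts cannot be told apart over the shared bases. These include CR34335 within DIP-alpha, CR42491 at RpL22, noe at blot and CR42862 at CG33229. CR43051 is annotated in the newer release as the protein-coding gene CG43051, and CR43283 and CR31451 now carry the names cherub and mimi.

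Levels are given as CPM, a gene's UMIs per 1000000 UMIs of the summed cells of a replicate. Since cells were classed by clustering, differences between classes are described and not tested, and in summed counts fewer cells with a transcript and less transcript per cell cannot be told apart. In the normal replicates 14 members were highest in NPCs, 14 in neurons, 13 in undifferentiated neurons, 2 in glia and 1 in muscle. Ratios of the highest to the next class were taken after 1 CPM was added to both means, which lowers them for genes with low levels. For 22 of the 44 members the highest class was at least 2-fold over the next, against 21.1% of the 6187 genes with 1000 or more UMIs. NPCs led at least 2-fold for 10 members (22.7%), against 2.49% of all genes. Neurons led at least 2-fold for 7 members (15.9%, against 8.32%), undifferentiated neurons for 4 (9.09%, against 4.07%), muscle for 1 (2.27%, against 3.02%) and glia for 0 (against 3.20%). Members and all genes were not matched for total counts in this comparison. With starved in place of normal replicates, 37 of 44 members kept their highest class. NPCs then led at least 2-fold for 7 members, neurons for 8, undifferentiated neurons for 3, muscle for 1 and glia for 0. Without Normal B, 35 of 44 members kept their highest class.

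**Figure D1:**
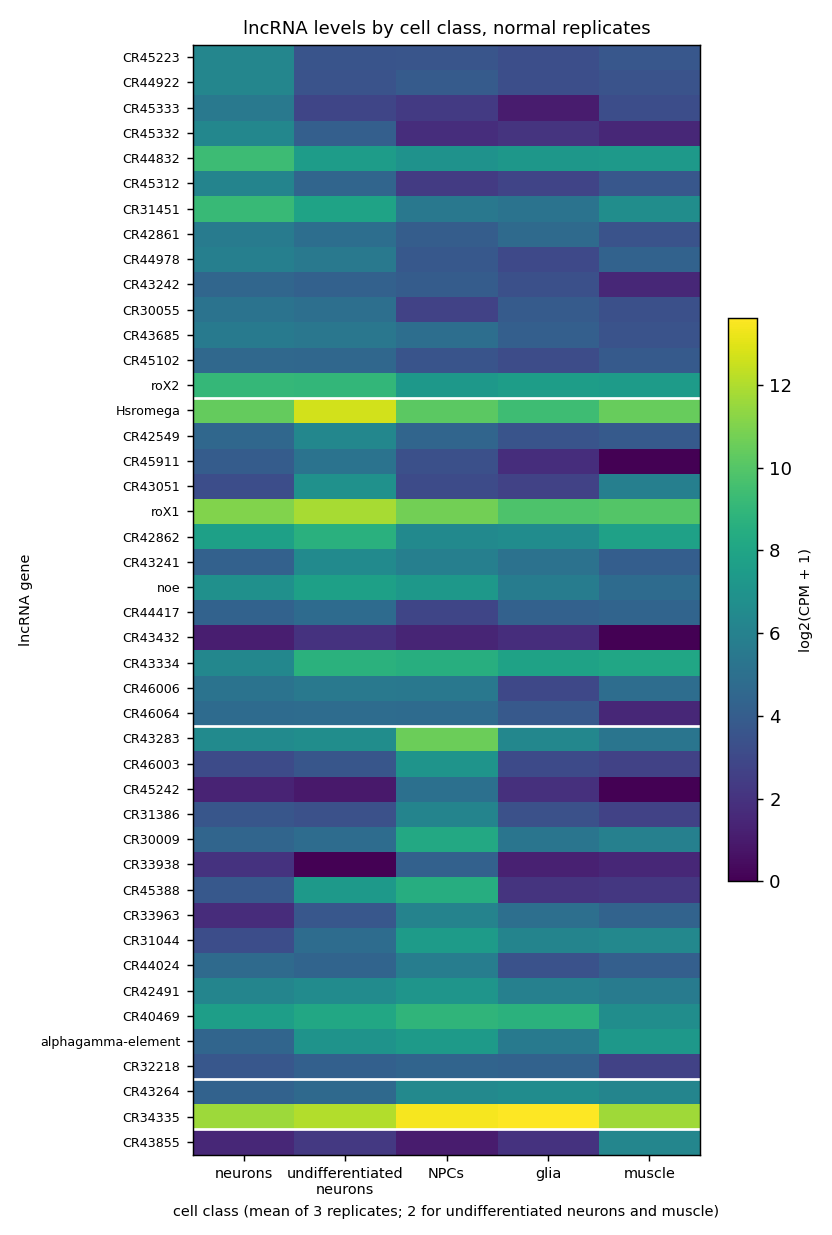
Heat map of the level of each of the 44 lncRNAs (rows, grouped by the class with the highest level) in 5 cell classes (columns), as log2(CPM + 1) of the mean over normal replicates. The blocks for neurons and NPCs hold most of the genes that are bright in 1 column, and CR34335 is bright in every column.

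The NPC group was led by CR43283, known as cherub, a lncRNA described in neuroblasts, where it is inherited unevenly at division and binds the RNA-binding protein Staufen. It lies at 3R:11247631-11256123 on the minus strand. Its level in NPCs was 903.6 CPM in Normal A, 1023.1 in Normal B and 2643.9 in Normal C, while undifferentiated neurons, the next class, were at 101.7 CPM ± 99.4 (SD, n = 2). NPCs and the next class did not overlap, and the ratio was 14.8. The spread among NPC replicates was wide, with the highest level in Normal C, whose cells were also the deepest. After each cell was thinned to 1000 UMIs, 22.7% of normal NPCs had a CR43283 UMI, against 7.57% of normal neurons (unthinned 61.1% and 34.9%, with median depths of 11277.0 and 7474.5 UMIs). The share that free RNA gives was not measured for this gene.

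CR43283 was concentrated in few cells. Over all kept cells, 199 cells with 20 or more of its UMIs held 83.3% of its counts, and the highest cell had 1308. The cluster in which it ranked among the leading genes, next to insb and nerfin-1, the latter a transcription factor of early neuronal differentiation, had median counts of 0 to 4.0 CR43283 UMIs per cell in the libraries. Even there a typical cell thus had few UMIs of it.

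CR31386, the neighbour of CR43283 at 13291 bases on the same strand, was also highest in NPCs, at 70.1 CPM ± 7.80 (SD, n = 3) against 11.4 ± 6.17 in neurons. On 3L, CR45242 and CR46003 lie 16591 bases apart on opposite strands, and both were highest in NPCs. CR46003 was at 190.2, 88.2 and 117.7 CPM in NPCs of Normal A, B and C, 10.6 times the next class. CR45242 was at 40.8, 38.6 and 15.7 CPM, the first of these from 6 UMIs. Glia, the next class, were at 2.73 CPM ± 3.08, and the ratio with 1 CPM added to both was 8.77. The next gene along, CR46006, which overlaps mir-276a and lies 15532 bases from CR46003, did not share that pattern: its level was 54.4, 25.6 and 49.3 CPM in NPCs and 41.2 and 47.7 CPM in undifferentiated neurons.

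CR30009 was at 428.0, 258.4 and 221.1 CPM in NPCs of the normal replicates and at 20.5 ± 19.9 (SD, n = 3) in neurons, while muscle, the next class, was at 59.6 ± 79.2 (SD, n = 2). It ranked among the first 10 genes of the 203 NPCs clustered around Pen, CycE and mira, of which 4.93% were shallow copies of a barcode that was over 3 times deeper elsewhere. The same held for another 95 NPCs, but there 96.8% were such copies. The microRNA precursors CR45388 (356.0 CPM ± 297.8 in NPCs against 157.7 ± 96.3 in undifferentiated neurons) and CR31044 (179.3 ± 69.5 against 82.2 ± 29.1 in muscle) were also at least 2-fold higher in NPCs than in any other class, although the replicates of CR45388 overlapped. CR33938, which was chosen after its values were seen, was low everywhere, at 18.1 CPM ± 4.21 in NPCs and 2.99 ± 4.12 in neurons.

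Most lncRNAs that were highest in neurons had low levels. CR45223 was at 92.3, 80.7 and 51.4 CPM in neurons of Normal A, B and C, against 11.9 ± 1.40 (SD, n = 2) in muscle, the next class. CR44922 was at 71.1, 85.3 and 67.7 CPM, 5.10 times the next class. CR45332 and CR45333 lie 86 bases apart on the minus strand of 2L and behaved alike in this respect: neurons held 78.2 CPM ± 21.4 of CR45332 and 44.3 ± 24.0 of CR45333, and both were highest in Normal C. Counts of such close neighbours may come from 1 transcript, which 3′ end reads cannot settle. CR31451 (mimi) was abundant in neurons of every normal replicate, with 600.7, 713.8 and 445.5 CPM, against 239.6 ± 95.7 (SD, n = 2) in undifferentiated neurons and 36.0 ± 7.38 (SD, n = 3) in glia. It was also the most evenly spread member: the highest 1% of cells held 5.81% of its UMIs.

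CR44832 had the opposite distribution. It lies at X:5790952-5791536 on the minus strand and had a mean of 649.2 CPM in normal neurons, but the SD was 647.8: Normal A was at 1305.0, Normal B at 9.65 and Normal C at 633.0 CPM. A total of 23 cells with 20 or more UMIs held 76.5% of its counts, and a single cell held 2680. Normal A had 7 such cells, Normal C 3, Starvation A.1 4, Starvation A.2 5 and Starvation B 4, while B.1 and B.2 had 0 among 1066 and 1243 cells. Most UMIs of CR44832 thus lay in a few cells, but low counts differed between libraries as well. At least 1 UMI was found in 728 of 1235 cells of Normal A, 54 of 1066 of B.1 and 58 of 1243 of B.2. Outside neurons, Normal A was at 345.6 CPM in glia and 278.6 in NPCs, against 3.42 and 8.35 in Normal B. The source of these low counts was not tested. A neuron cluster of 315 cells, 88.6% of them from Normal A, had CR44832 among its leading genes.

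**Figure D2:**
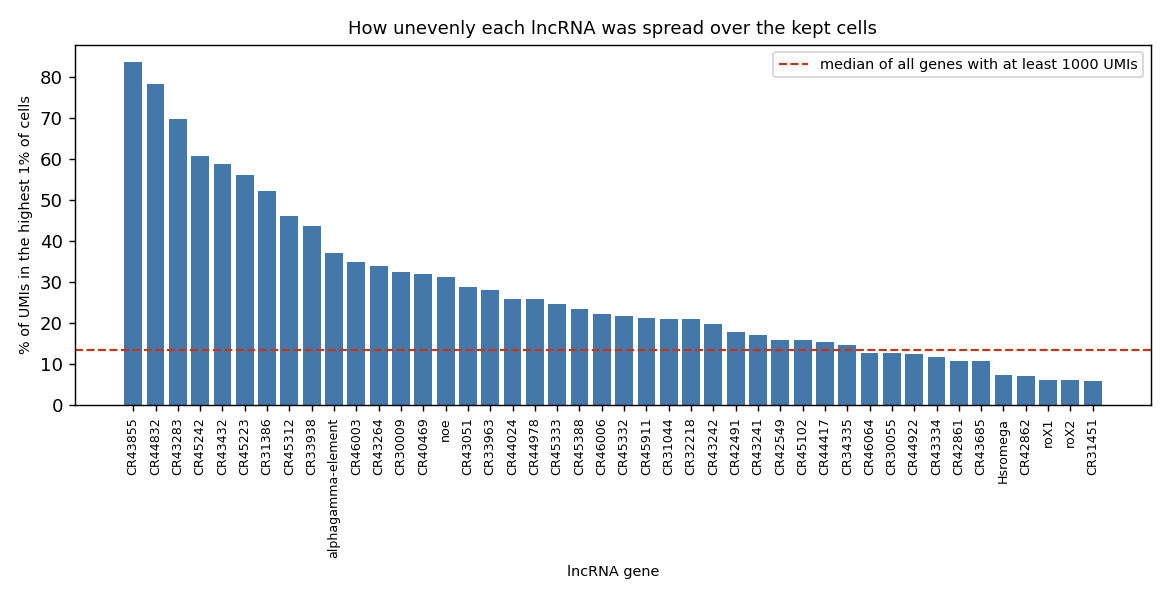
Bar chart of the percentage of each lncRNA's UMIs (y axis) that lay in the 1% of kept cells (87 cells) with the most of them, for the 44 members (x axis). The bars run from 83.7% for CR43855 to 5.81% for CR31451, and the dashed line is the median of all genes with at least 1000 UMIs, 13.5%.

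As a description, members were more concentrated in few cells than all genes with 1000 or more UMIs, without adjustment for total counts. The highest 1% of cells held a median of 21.9% of a member's UMIs, against 13.5% over 6187 genes, and 26 of 44 members (59.1%) were over 20%, against 22.4% of genes. CR43855 was at 83.7%, CR44832 at 78.4%, CR43283 at 69.8% and CR45242 at 60.7%. CR43432, chosen after its values were seen, was at 58.9%, and outside the 5 classes it was highest in the cluster named prothoracic gland, after the gland that makes ecdysone. There it was at 1392.8 CPM in normal and 1439.0 CPM in starved cells, while no class mean among the 5 was above 2.96 CPM in the normal condition. The cluster held 52 cells, and 76.9% of them were shallow copies of a barcode that was more than 3 times deeper elsewhere. The value in starved cells rested on Starvation A.1, which gave 406 UMIs from 9 cells, against 38 UMIs from 7 cells of A.2 and 0 of Starvation B. Over all kept cells, 3 cells with 20 or more UMIs held 32.0% of its counts, and the highest had 231.

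CR43855 belonged to rare cells too. A cluster of 60 cells with no class name, led by CG15550 and CR43855, held 7 normal and 53 starved cells. Its next leading genes were Tep4, Sr-CIII, CG8157 and He, and whether these cells belong to the brain was not tested. In starved cells of that cluster CR43855 was at 3067.4 CPM. Hemocytes had 890.0 CPM in the normal condition, where 31 of the 32 cells came from Normal B. The nominal lead of CR43855 in muscle was 74.3 CPM ± 94.8 (SD, n = 2). It came from 141.3 CPM in the 26 muscle cells of Normal A against 7.24 in Normal B, so it rested on 1 replicate.

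Hsromega, the heat shock RNA omega, gathers RNA-binding proteins into nuclear omega speckles and is strongly induced by heat. It was the leading member of undifferentiated neurons, with 6140.3 CPM in Normal A and 6946.5 in Normal B, against 1358.4 ± 219.0 (SD, n = 3) in neurons and 1413.6 ± 1179.5 (SD, n = 2) in muscle, the next class at a ratio of 4.63. Of the undifferentiated neurons, 231 cells formed a cluster led by Hsp68, Hsp70Bc and Hsp26, 93.5% of them from Normal A. Summed heat shock genes reached 9064.5 CPM in undifferentiated neurons of Normal A and 3510.5 in Normal B, and their part in the level of Hsromega was not tested. In starved undifferentiated neurons, where the summed heat shock genes were at 656.0 and 990.6 CPM, Hsromega was at 5797.1 and 7312.0 CPM.

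CR42549 (77.2 CPM ± 30.7, 3.40 times the next class) and CR45911 (35.4 ± 0.648, 2.31 times) were also highest in undifferentiated neurons. CR43051 followed with 118.0 ± 116.2 CPM, where Normal A was at 35.8 and Normal B at 200.2, so its mean rested on 1 replicate. noe (216.2 ± 11.9 in undifferentiated neurons, 151.2 ± 73.1 in NPCs) and the bantam precursor CR43334 (409.3 ± 178.4 and 371.1 ± 245.9), bantam being a microRNA that promotes growth, overlapped between these classes. The alphagamma element, transcribed from a heat shock locus, did not have a clear leading class: NPCs were at 171.9 CPM ± 74.7 and muscle at 150.3 ± 187.0.

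CR34335 was high in every class and found in 98.5% of kept cells. It lies at X:3545750-3546110 within DIP-alpha, an adhesion gene whose own level over all cells was 14.4 to 37.5 CPM. Glia had 9973.3, 13816.9 and 14022.7 CPM and NPCs 6678.9, 12781.0 and 14130.2 CPM in Normal A, B and C, which overlapped. Neurons had 2138.9, 3970.2 and 3235.3 CPM, below every glial and NPC replicate. CR43264, the other member highest in glia, was at 98.3 CPM ± 23.2 in glia and 85.0 ± 33.5 in NPCs, which also overlapped.

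The roX RNAs were the second and the sixth most abundant members. roX1 was highest in undifferentiated neurons (3718.2 CPM ± 598.4, SD, n = 2), followed by neurons (2071.0 ± 500.4, SD, n = 3), NPCs (1685.1 ± 131.1), muscle (992.2 ± 322.3) and glia (886.2 ± 321.0), and of these neighbours undifferentiated neurons did not overlap with neurons, nor NPCs with muscle, while the others overlapped. roX2 was at 538.3 CPM ± 129.1 in neurons and 522.3 ± 92.6 in undifferentiated neurons, which did not differ beyond their spread, and at 152.8 to 189.3 CPM in the other classes. Neurons and undifferentiated neurons did not overlap with any of the other 3 classes in roX2.

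Among all kept cells, 85.5% had a roX1 UMI, 65.9% a roX2 UMI, 62.4% both and 11.0% neither. The RNAs occurred together: 94.7% of the cells with roX2 had roX1, with a mean of 20.5 UMIs, against 67.7% of the other cells, with a mean of 3.51. Depth enters these shares, so each cell was thinned to 1000 UMIs, which every kept cell reached. Thinned, 86.1% of the cells with roX2 had roX1, with a mean of 3.77 UMIs, against 52.0% of the other cells, with a mean of 1.67. The thinned share of cells with roX1 was between 58.2% and 62.5% in 6 libraries and 84.6% in Starvation B, and that with roX2 between 27.1% and 30.7% against 54.2%. Starvation B thus stood apart from both starvation libraries A.1 and A.2 and from all normal libraries. The proportion of male larvae in each library is not given in the sources used here.

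Between conditions, the question was whether lncRNA levels change after starvation. The 44 members took 1.15%, 1.33% and 1.38% of all UMIs in Normal A, B and C, and 1.68% and 1.79% in Starvation A and B. The starved replicates were all above the normal ones, by 0.451 percentage points of the means (1.29% ± 0.119, n = 3, against 1.74% ± 0.0779, n = 2). An exact permutation test, two-sided, gave p = 0.10, the smallest p that its 10 arrangements allow. Without CR34335 the shares were 0.817%, 0.684% and 0.603% against 0.703% and 0.917%, which overlapped, so the order rested on that gene. With all deposited barcodes the difference was 0.600 percentage points and the exact p was 0.20.

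Gene by gene, edgeR's quasi-likelihood test on counts summed per replicate called 0 of 44 members in all cells, where it called 0 of 9120 genes (0%). At an unadjusted p under 0.05 there were 5 members, beside 922 of all genes, and DESeq2 called 2, beside 216. In neurons 0 of 44 members were called, beside 0.0367% of 8172 genes, with 5 members at an unadjusted p under 0.05 (beside 693 genes) and 3 called by DESeq2 (beside 105). In NPCs 0 of the 37 members tested were called, beside 0.104% of 6745 genes, with 8 at an unadjusted p under 0.05 (beside 672 genes) and 2 called by DESeq2 (beside 26). In glia 22 members passed the filter on low counts and 1 was called, beside 2.40% of 4132 genes, with 7 at an unadjusted p under 0.05 (beside 802 genes) and 2 called by DESeq2 (beside 135). Since the filter keeps genes that are high in at least 1 condition, members that passed it are not all members. The median log2 fold change of the members was 0.14 in all cells, 0.12 in neurons, 0.27 in NPCs and 0.33 in glia, beside -0.01, 0.01, 0.02 and -0.01 over all genes tested.

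**Figure D3:**
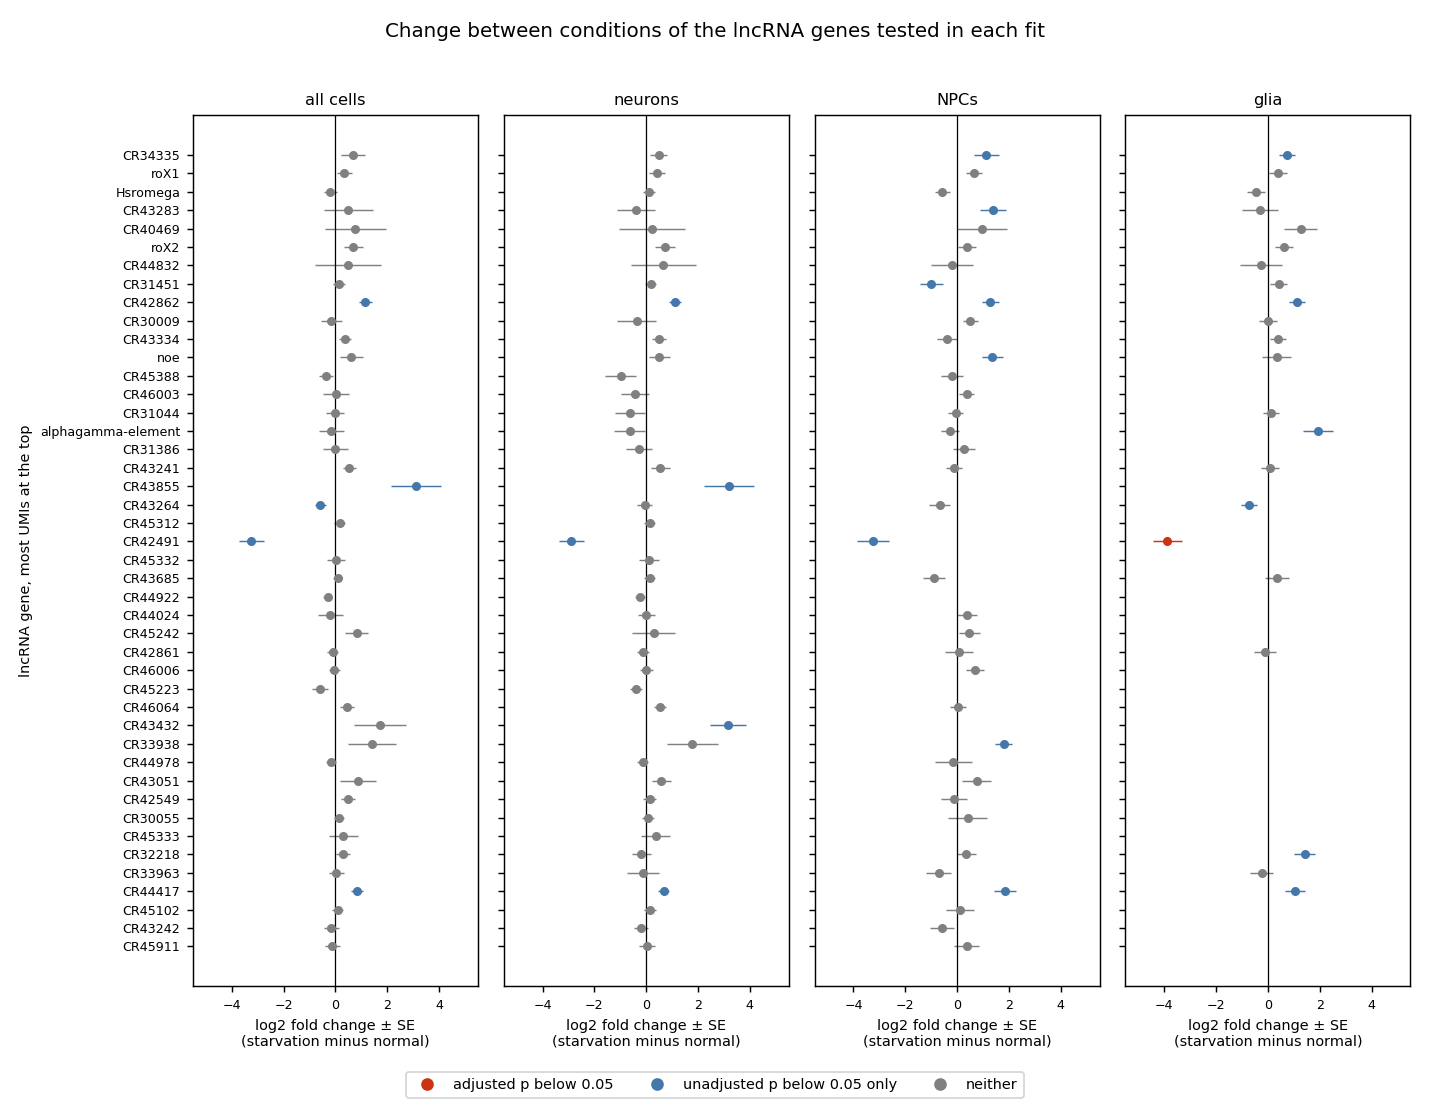
Log2 fold change (starvation minus normal, x axis) with its standard error for each lncRNA that was tested (y axis, most abundant at the top) in all cells, neurons, NPCs and glia. The red point is CR42491 in glia, the single member with an adjusted p under 0.05 (edgeR), and it lies left of 0 in all 4 panels.

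The member called was CR42491, which lies at X:762615-763810 on the minus strand and overlaps RpL22, a gene of the large ribosomal subunit, on that strand. In glia it was at 80.8, 47.9 and 52.9 CPM in Normal A, B and C, and at 4.25 and 0 CPM in Starvation A and B. It fell by 3.88 on the log2 scale (SE 0.544), with an adjusted p of 0.010 by edgeR, where 0.799% of all genes were called lower. Of the starved glia, 2.70% of 333 cells had a CR42491 UMI, against 29.4% of 214 normal glia, although the starved cells were deeper (median 6004.0 against 2222.5 UMIs). Thinned to 1000 UMIs, the shares were 0% and 7.94%. The glial values rest on 40, 14 and 50 UMIs in the normal and on 12 and 0 UMIs in the starvation replicates. By library they were 80.8, 79.9, 0 and 52.9 CPM in Normal A, B.1, B.2 and C, and 5.10, 3.19 and 0 CPM in Starvation A.1, A.2 and B. All 14 UMIs of Normal B thus came from B.1, and Normal B.2, with 0 of 116868 UMIs, lay below A.1 and A.2.

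The other classes held the same order of values. Over all cells CR42491 was at 118.4, 39.4 and 66.8 CPM in the normal and at 8.32 and 6.38 CPM in the starvation replicates, and by library at 118.4, 45.0, 33.8 and 66.8 against 5.49, 11.0 and 6.38 CPM. The log2 fold change was -3.24 ± 0.470 (SE) in all cells with an adjusted p of 0.257, -2.89 ± 0.485 in neurons with 0.153 and -3.26 ± 0.610 in NPCs with 0.095, all by edgeR. In NPCs its values were 285.4, 55.3 and 70.5 CPM against 8.33 and 10.7. Undifferentiated neurons (154.1 and 34.9 against 5.42 and 0 CPM) and muscle (77.1 and 21.7 against 2.92 and 0 CPM), which were not tested, did not overlap between conditions either. The call in glia was lost without Normal C (adjusted p = 0.068, edgeR), as were most calls over all genes there, which went from 99 to 2 (to 15 without Normal A). Without Normal B the adjusted p of CR42491 by edgeR was 0.022 in neurons and 0.005 in NPCs, and without Normal A it was 0.044 in NPCs.

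RpL22 itself was at 1339.5, 1502.8 and 1348.2 CPM in the normal and at 1746.4 and 1349.5 CPM in the starvation replicates, so its replicates overlapped between conditions. The summed heat shock list did not overlap: it was at 3708.9, 2296.9 and 3820.2 CPM in the normal and at 698.6 and 1321.6 CPM in the starvation replicates over all cells, and at 1913.8, 718.9 and 2436.2 against 276.3 and 347.1 CPM in glia. Among the 6 heat shock genes tested in glia, edgeR called 2 lower, Hsp26 (-3.53, adjusted p = 0.010) and Hsp27 (-2.79, adjusted p = 0.045). Their part in the level of CR42491 was not tested.

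**Figure D4:**
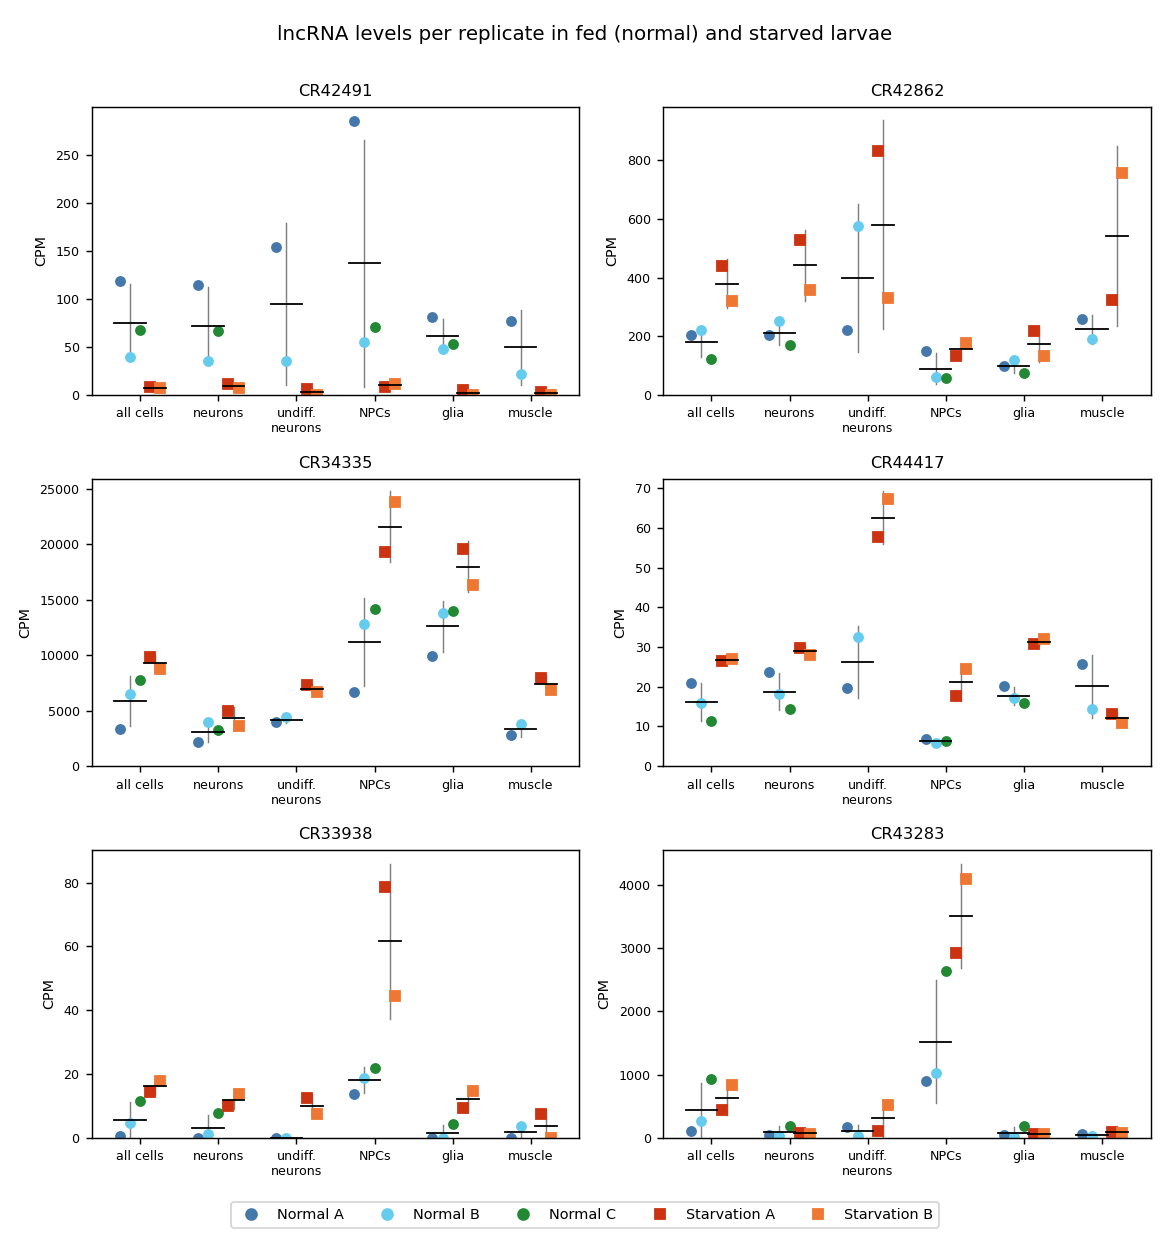
CPM per replicate (y axis) of 6 lncRNAs in all cells and 5 classes (x axis), with circles for normal and squares for starvation replicates, a horizontal bar for the mean and a vertical line for the SD. CR42491 is lower in both starvation replicates in every class, and CR34335 is higher in both in all classes but neurons, where Starvation B lies among the normal replicates.

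CR42862, at 3L:224106-230964 across CG33229, had the opposite direction. Over all cells it was at 202.5, 220.4 and 120.9 CPM in the normal and at 438.9 and 318.9 CPM in the starvation replicates, and by library at 202.5, 215.5, 225.4 and 120.9 against 431.8, 445.6 and 318.9 CPM. Starvation replicates were above all normal replicates in all cells, in neurons and in glia, but in NPCs Normal A (149.5 CPM) lay above Starvation A (130.4 CPM). By library, glia overlapped, with Normal B.1 at 148.4 CPM (26 UMIs) above Starvation B at 130.5 (53 UMIs). Replicates of undifferentiated neurons overlapped (220.4 and 577.3 against 833.1 and 329.0 CPM). Those of muscle did not (256.9 and 188.4 against 323.7 and 758.7 CPM). The log2 fold change was 1.15 ± 0.248 (SE) in all cells, 1.11 ± 0.231 in neurons, 1.28 ± 0.330 in NPCs and 1.12 ± 0.304 in glia, with adjusted p-values of 0.302, 0.257, 0.317 and 0.071 by edgeR. The protein-coding gene CG33229 was at 90.2, 112.2 and 73.1 against 113.9 and 111.7 CPM, which overlapped. Thinned to 1000 UMIs, 19.5% of normal and 38.2% of starved neurons had a CR42862 UMI.

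CR34335 was at 3366.8, 6459.4 and 7757.9 CPM in the normal and at 9804.4 and 8766.1 CPM in the starvation replicates. Among the 5 classes its highest levels were in starved NPCs, at 19335.8 and 23850.8 CPM, against 6678.9, 12781.0 and 14130.2 CPM in normal NPCs. The log2 fold change was 0.67 ± 0.463 in all cells, 0.47 ± 0.325 in neurons, 1.13 ± 0.474 in NPCs and 0.74 ± 0.306 in glia, and edgeR's adjusted p-values were 0.681, 0.761, 0.461 and 0.209. Normal A was the lowest normal replicate in each of these, and none of these differences passed the test.

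In NPCs, CR43283 was at 2922.7 and 4093.8 CPM in the starvation replicates, above the 903.6, 1023.1 and 2643.9 CPM of the normal ones. Its log2 fold change of 1.38 ± 0.495 had an adjusted p of 0.430 by edgeR. CR33938 was at 13.6, 18.8 and 21.9 CPM against 78.8 and 44.4, a log2 fold change of 1.79 ± 0.319 with an adjusted p of 0.076, and noe was at 95.1, 124.8 and 233.8 against 254.2 and 474.8, 1.36 ± 0.421 with 0.370. These 3 genes did not overlap between conditions in NPCs and did not pass the test. The NPCs of Normal A were 31 cells, and the value of CR33938 there rested on 2 UMIs. The clusters that made up the NPCs had different weights in the conditions: the cluster led by Pen, CycE and mira gave 153 of the 401 normal and 50 of the 254 starved NPCs, and that led by insb, nerfin-1 and CR43283 gave 67 and 91. In glia, CR32218 was at 26.3, 17.1 and 11.6 against 43.6 and 34.5 CPM, a log2 fold change of 1.42 ± 0.412 with an adjusted p of 0.084 by edgeR. These values rested on 13, 5 and 11 UMIs in the normal and 123 and 14 UMIs in the starvation replicates. CR32218 and CR44417, which follows, were chosen after their values were seen.

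CR44417 was low throughout. It was at 20.9, 16.0 and 11.4 CPM against 26.4 and 27.1 over all cells, and its starved replicates lay above the normal ones in neurons, undifferentiated neurons, NPCs and glia, but below them in muscle (25.7 and 14.5 against 13.1 and 11.0 CPM). The log2 fold change was 0.83 ± 0.217 in all cells, with an adjusted p of 0.327 by edgeR.

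CR43855 had the largest positive fold change over all cells, 3.10 ± 0.974, with an adjusted p of 0.369 by edgeR, from 6.53, 28.5 and 1.31 CPM against 94.6 and 102.0 CPM. Without the 60 cells of the cluster it led, an alternative chosen after seeing the data, the log2 fold change was 0.32 ± 1.06 (adjusted p = 0.955, edgeR). The starved libraries A.1, A.2 and B held 888, 1382 and 655 of its UMIs in that cluster and 248, 324 and 48 in all other cells. The difference over all cells thus rested on the cells of that cluster.

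Other abundant members overlapped between conditions. CR40469 was at 19.2, 621.8 and 123.9 CPM in the normal and 625.7 and 224.9 CPM in the starvation replicates, a log2 fold change of 0.77 ± 1.19. In glia, thinned to 1000 UMIs, 16.4% of normal and 33.6% of starved cells had a CR40469 UMI, but normal glia were at 111.2, 855.9 and 266.6 CPM, beside 1164.9 and 517.0 in the starved replicates. CR44832 was at 902.7, 11.9 and 385.9 against 389.8 and 728.2 CPM, and Normal B was the lowest of all 5 replicates.

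roX1 was at 2416.2, 1973.4 and 1435.5 CPM in the normal and 1771.6 and 2837.7 CPM in the starvation replicates, and roX2 at 448.3, 474.6 and 297.2 against 390.5 and 839.7. Starvation B was the highest replicate for both, and the log2 fold changes of 0.35 ± 0.303 and 0.70 ± 0.367 did not pass the test (adjusted p = 0.745 and 0.595, edgeR). Hsromega was at 2174.6, 1569.9 and 1105.4 against 1244.5 and 1393.6 CPM, which overlapped, with a log2 fold change of -0.19 ± 0.265. In NPCs alone its replicates did not overlap (1311.3, 1036.1 and 1120.4 against 687.7 and 626.4 CPM), with -0.57 ± 0.282 and an adjusted p of 0.527 by edgeR.

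Protein partners of these RNAs were read from the same fits. None of the 6 MSL complex genes (msl-1, msl-2, msl-3, mle, mof and Clamp), of the 9 omega speckle genes or of the 6 genes studied with cherub in neuroblasts was called by edgeR in any of the 4 fits, with 0 to 2 genes of each list at an unadjusted p under 0.05. DESeq2 called 1 omega speckle gene lower in all cells and 0 genes of these lists elsewhere. In glia 1 MSL gene and 5 cherub genes were tested. The median log2 fold change in NPCs was 0.22 for the MSL list, 0.09 for the omega speckle list and 0.43 for the cherub list. Of the heat shock list, 11 genes were tested in all cells, with a median of -2.01 and 8 genes at an unadjusted p under 0.05. edgeR called 0 of them and DESeq2 called 7, all lower.

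Members whose replicates did not overlap between conditions were counted in the same way as all genes, as a description. Over all cells, 8 of 44 members were higher in both starvation replicates than in any normal one, beside 11.1% of genes with 50 or more UMIs, and 3 were lower, beside 17.7%. In neurons there were 6 (beside 10.9%) and 2 (13.5%) of 44, in NPCs 6 (9.34%) and 5 (23.2%) of 35, and in glia 5 (10.0%) and 3 (23.8%) of 28. CR42491 was among the lower members in each, and CR44417 and CR33938 were among the higher ones in all cells, neurons and NPCs.

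Whether classes differed in their response was tested in 1 model over neurons, NPCs and glia. edgeR called 0 of 8001 genes (0%) and 0 of 44 members for a difference between classes, with 4 members at an unadjusted p under 0.05, beside 526 genes, and DESeq2 was not run for it. Between glia and NPCs alone it called 3 genes and 0 members, with 6 members at an unadjusted p under 0.05, beside 721 genes. The lowest p among members was that of the alphagamma element (adjusted p = 0.408 by edgeR), which was at 24.3, 41.1 and 77.2 against 76.9 and 263.4 CPM in glia and at 33.4, 5.68 and 23.2 against 12.6 and 12.8 CPM in neurons. For CR42491 the adjusted p was 0.884, so the call in glia was not shown to differ from the values in neurons and NPCs.

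The filter on genes per cell bore on the progenitor lncRNAs. It removed 329 barcodes with 4500 or more genes, which held 28.4% of all UMIs and 48.6% of those of Normal C. All 8 NPC markers (dpn, N, ase, klu, mira, wor, grh and insc) were higher in these barcodes than in the kept cells of either condition, at summed levels of 1601.0 against 445.8 CPM in the normal and 1381.4 against 373.1 CPM in the starvation condition, and 0 of the 12 neuron and 0 of the 11 glial markers were. Markers of other cells were higher as well: all 5 of the prothoracic gland (129.6 against 60.7 CPM in the normal and 943.5 against 153.5 CPM in the starvation condition), 5 of 6 of the optic lobe epithelium in both conditions and, in the starvation condition, all 9 of muscle (2117.4 against 672.7 CPM) and 3 of 6 of undifferentiated neurons. In the normal condition 0 of the muscle and 0 of the undifferentiated neuron markers were. Of the 14 members highest in NPCs, 13 were higher in the removed barcodes in both conditions, with median ratios of 2.41 and 2.62, and all 14 members highest in neurons were lower, with median ratios of 0.184 and 0.232. Of the 6187 genes with 1000 or more UMIs, 2597 in the normal and 2567 in the starvation condition were higher (41.5% in the latter). Whether the removed barcodes are large single progenitor cells or several cells in 1 droplet was not tested.

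**Figure D5:**
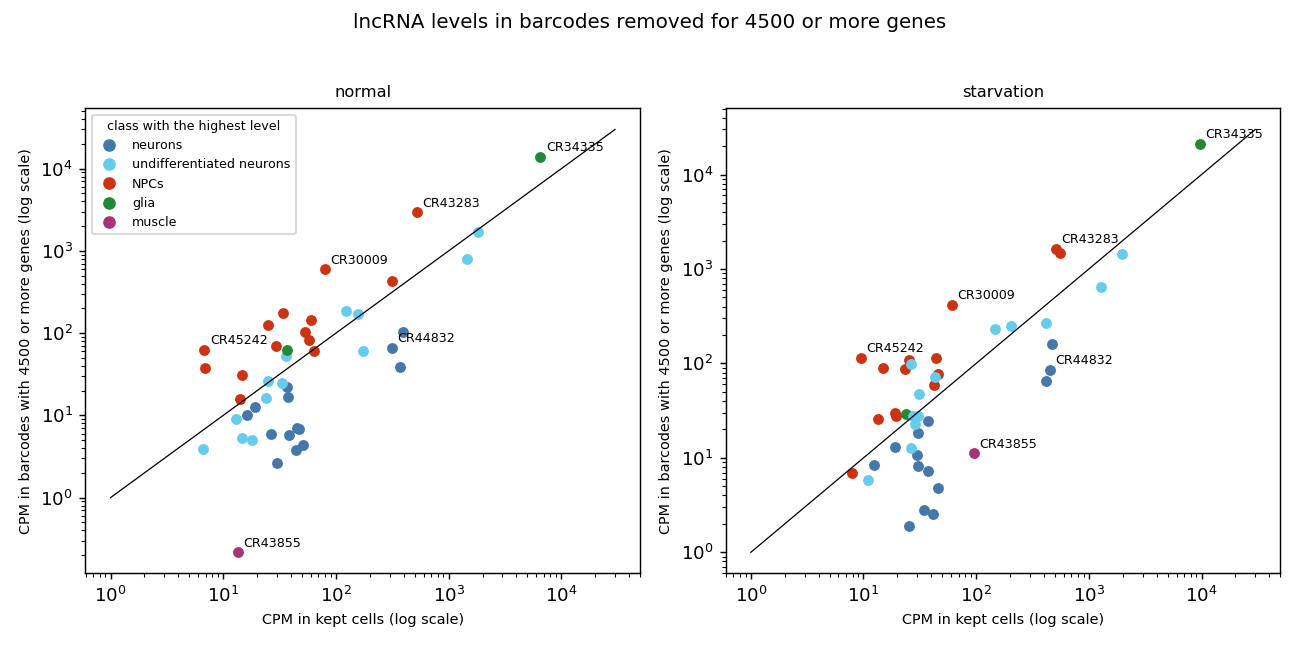
CPM of each lncRNA in removed barcodes with 4500 or more genes (y axis, log scale) against that in kept cells (x axis, log scale), for the normal and the starvation condition, coloured by the class with the highest level. Points above the diagonal are higher in the removed barcodes, and they include CR43283, CR30009 and CR45242, while every neuronal point lies below it.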

How the data were processed

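Single cell 3′ libraries were sequenced, and the authors made the deposited UMI counts per gene and barcode with Cell Ranger 2.2.0 on FlyBase annotation release 6.22. Counts are whole and not normalised. The 2 deposited aggregated matrices hold 7 libraries. Libraries of 1 experiment were summed through the cell numbers in the study's supplementary table, a link inferred from values. Cells with 200 to 4500 genes and under 20% mitochondrial UMIs (37 genes) were kept. They were clustered with Seurat 5.3.0 without lncRNA genes and named from marker lists, with thresholds set after the clusters were seen. UMIs per library ran from 5359444 to 25232852. Counts summed per replicate and class (20 or more cells) were tested with edgeR 4.0.16 (R 4.3.3), quasi-likelihood, TMM, filterByExpr, Benjamini-Hochberg at 0.05 over all genes of a fit. Errors of log2 fold changes are SE, and DESeq2 1.42.0 was an alternative, as were other replicates, filters, normalizations and clusterings. Scanpy 1.11.5 called 41 cells (0.471%) as doublets, too few to be trusted, so 434 cells with the highest 5% of scores were dropped in an alternative. Scripts were tested on simulated data. The labels do not say that replicates come from separate cultures, so p-values measure the spread between these samples, and shares of cells carry counting error only. Members and lists were chosen with earlier results of these data known. The genes named were the 8 with the most UMIs, those the study names, those with a given name, the 4 with the largest ratio to the next class in each class, called members whose replicates did not overlap, and those beside the threshold. CR45388, CR31044, CR43334 and CR46006 were named outside these rules, as were CR33938, CR43432, CR32218 and CR44417. The microRNA and gene overlaps come from the newer gene annotation of the same genome assembly, with 43 members matched by gene ID. RefSeq gave synonyms and served for symbols without a match there.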

Additional observations from a re-analysis of the deposited data

Results flagged for a closer look

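CR31451 was at 261.5 CPM over all kept cells in Normal C, far below the other 3 normal libraries, which lay between 435.3 and 453.8 CPM. Such a gap, beyond Dixon's 95% critical value, comes up by chance in about 1 in 20 groups.

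Several lncRNAs had a large part of their UMIs in the 329 barcodes that the filter on genes per cell removed, at levels above those of the kept cells. The percentage of all UMIs of the gene found there was 80.9% for CR45242, 74.0% for CR30009, 68.7% for CR33938, 65.4% for CR46003, 64.0% for CR43283, 61.9% for CR31386, 49.3% for CR45388 and 45.4% for CR34335, beside 28.4% of all UMIs. In the normal condition the level in these barcodes was 9.23 times that in kept cells for CR45242, 7.40 times for CR30009, 5.68 times for CR43283 and 2.15 times for CR34335, and in the starvation condition 12.2, 6.86, 3.20 and 2.21 times.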

How the results depend on the processing

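Alternatives were counted for members with an unadjusted p under 0.05 (edgeR) in a main fit, a choice made from these same data. Of their values under alternatives, 315 kept their direction and side of the threshold and 0 reversed. Another 52 passed it only under the alternative, and 1 was lost (CR42491 in glia without Normal C). Named genes without such a p are not in these counts. With the 7 libraries as separate samples, 3 members were called in all cells, 3 in neurons, 4 in NPCs and 3 in glia (all genes 432, 181, 77 and 487, against 0, 3, 7 and 99). With DESeq2 there were 2, 3, 2 and 2 (all genes 216, 105, 26 and 135), and with no filter on low counts 3, 5, 6 and 7 (all genes 169, 313, 112 and 381). A term for the aggregation gave 3 members in glia (141 genes) and 0 members in neurons (9 genes). It set Normal C and Starvation B, absent from the first deposited aggregation, apart from the other replicates. In NPCs, 1 member was called without cells deeper under the same barcode elsewhere (29 genes), 2 without the highest doublet scores (14 genes), 2 when lncRNA genes entered the clustering (49 genes) and 1 with the unnamed clusters of NPC markers, an alternative chosen after seeing the data, as were adding the Pdf cluster to neurons and leaving out the CR43855 cluster. In glia, 176 genes were called without cells deeper elsewhere. Leaving out a replicate gave 0 members in all cells, 0 to 1 in neurons, 0 to 1 in NPCs (17 genes without Normal B, 2 without Normal C) and 0 to 2 in glia. The causes were not tested.

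Whether numbers in the labels pair the libraries was not settled: deviations of same-numbered libraries correlated at 0.04, 0.22 and -0.15. Normal A and B.1 correlated best with their own number, but by little (0.04 beside 0.03, and 0.22 beside 0.19). Normal B.2 correlated best with another number (0.15). The highest correlation was 0.36, between Normal C and Starvation B, the libraries absent from the first deposited aggregation. Its cause was not tested. With the replicate block, 0 members were called in all cells, 1 in neurons, 3 in NPCs and 3 in glia (all genes 55, 49, 37 and 227).

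Of the class counts, members highest in muscle were 2 when lncRNA genes entered the clustering, 2 without cells deeper elsewhere and 2 in starvation, and those highest in glia 1 without such cells and 4 in starvation. Leaving out a replicate gave 8 to 14 for undifferentiated neurons and 1 to 5 for muscle, with 8 and 5 without Normal B. Depth limits undifferentiated neurons and muscle, which Normal C nearly lacked, and genes near 1000 UMIs.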

Other observations

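Outside the 5 classes, lncRNA levels were high in some of the groups of cells that entered no comparison. In unnamed clusters with markers of both NPCs and undifferentiated neurons, CR43283 was at 1081.1 CPM in normal and 1828.3 CPM in starved cells. Of their normal cells, 275 came from Normal B, 12 from Normal A and 2 from Normal C. In the larger of these clusters, 51.1% of the cells were shallow copies of a barcode that was over 3 times deeper elsewhere. In the smaller one, 13.2% were. In hemocytes CR43855 was at 890.0 CPM in normal and 179.5 CPM in starved cells, from 47 cells in all. Of the 32 normal cells 31 came from Normal B, and all 15 starved cells came from Starvation A. Such shallow copies made up 55.3% of the 47 cells.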
